A study of Danio rerio with 24 samples.

Results

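Bile acid synthesis enzymes and the nuclear receptor pathway that controls them were examined in pooled larval zebrafish livers. The list held 9 genes: the synthesis enzymes *cyp7a1*, *cyp8b1*, *cyp27a1.4*, *hsd3b7*, *amacr*, *akr1d1* and *baat*, the bile acid receptor FXR (*nr1h4*) and its target *nr0b2a*, which encodes SHP. They were chosen by gene symbol, and 7 of the 9 were found among the 19793 genes of the count table. All 7 passed the filter on low counts, as did 11489 genes in all. *akr1d1* and *baat* were not analysed here.

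The study used zebrafish with a loss-of-function mutation in *mtm1*, which encodes a phosphoinositide phosphatase and is mutated in X-linked myotubular myopathy. The *mtm* group held 6 libraries from homozygous mutants, 3 of a first submission (*mtm* 1, 2 and 3) and 3 labelled as resubmitted (*mtm* R1, R2 and R3), and nothing in the labels says whether the resubmitted libraries came from new pools. The protocol states 4 to 5 replicates per group, fewer than these 6 libraries, so some *mtm* libraries may share a pool and p-values that count all 6 may then be too small. Results with same-numbered *mtm* libraries summed to 3 are therefore also given. The EtOH group held 4 libraries from wild-type larvae kept in 2% ethanol for 32 h. The overfed group held 4 libraries from wild-type larvae offered 6 times the usual amount of food from day 5 to day 7. The WT group held 4 libraries from untreated wild-type larvae. The methods give AB as the strain of the zebrafish used. They do not say whether these WT larvae were siblings of the mutants. Every library was made from 40 livers, dissected at 7 dpf by the methods and pooled, so no value belongs to a single larva. The results text of the study gives 5 dpf for these livers instead. The mutants carry the mutation in all tissues and die soon after 7 dpf. The labels do not say that pools were independent collections, so p-values measure the spread between these libraries, part of which may be technical. Total counts were 8919274–15831830 in *mtm* libraries, 11059423–18948277 in EtOH libraries, 15131025–20582311 in overfed libraries and 9297847–17717723 in WT libraries.

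Bile acids are made from cholesterol in hepatocytes. In mammals Cyp7a1 hydroxylates the sterol ring in the rate-limiting step of the classic route, Hsd3b7 then oxidizes the ring, Cyp8b1 adds the further hydroxyl group found in cholic acid, and Cyp27a1 hydroxylates the side chain in mitochondria. The side chain is then processed in peroxisomes, where Amacr inverts its stereochemistry. Bile acids that build up in the hepatocyte bind FXR, which induces SHP, and SHP in turn represses the genes for Cyp7a1 and Cyp8b1. Zebrafish secrete mainly a sulfated bile alcohol rather than the conjugated bile acids of mammals, so the roles given here for the zebrafish genes are those of their mammalian counterparts. Levels are given as CPM, counts scaled to library size, by the TMM method, without correction for transcript length, and are compared between groups only, not between genes.

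The targeted gene was measured first. *mtm1* stood at 0.159–2.38 CPM in the 6 *mtm* libraries and at 3.23–7.92 CPM in the 4 WT libraries, with no overlap. Its fitted log2 fold change was -1.83 ± 0.72 (SE), with an adjusted p of 0.0884 in edgeR (quasi-likelihood F test, Benjamini-Hochberg). The gene was counted low in all libraries. In EtOH libraries it ranged from 0.175 to 4.88 CPM.

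Summed RNA levels of cell type markers differed between groups. Of 30 hepatocyte markers listed, 21 were in the table and all 21 were counted in every library. Their summed level was 52782–253430 CPM in *mtm* libraries, 136534–223249 CPM in EtOH libraries, 285856–351129 CPM in overfed libraries and 230806–383114 CPM in WT libraries. *mtm* 1 held the highest value of its group, and the other 5 *mtm* libraries did not exceed 112610 CPM. Taken singly, 8 of the 21 markers were called lower and 1 higher in *mtm* than in WT livers (all genes 8.59% lower and 10.1% higher). The marker *fabp10a*, singled out after its values had been seen, stood at 7235–26363 CPM in *mtm*, 5603–7700 CPM in EtOH and 11216–15288 CPM in WT libraries. The sum therefore does not describe every marker. Of 16 macrophage markers in the table, summed levels were 222–654 CPM in *mtm*, 64.6–141 CPM in EtOH, 33.1–61.7 CPM in overfed and 25.1–50.9 CPM in WT libraries. WT 4 stood apart from its group, with 72771 CPM of exocrine pancreas markers and 8319 CPM of neutrophil markers, the highest values of any WT library. Exocrine pancreas markers stood at 32807 CPM in EtOH 3 and at 22293 CPM in *mtm* 1, the highest of their groups. *mtm* 1 also held the most neutrophil (5038 CPM) and intestine (9670 CPM) marker RNA of its group. Skeletal muscle markers reached 8164 CPM in EtOH 2. In bulk samples, fewer hepatocytes and less RNA of a gene per hepatocyte cannot be told apart.

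The ring hydroxylases behaved differently from each other. *cyp7a1* was far higher in EtOH livers than in WT livers and showed no call in *mtm* livers, whereas *cyp8b1* was lower in *mtm* livers and showed no call in EtOH livers. *cyp7a1* stood at 239.5, 231, 233 and 568 CPM in EtOH 1 to 4, against 4.29, 15.6, 34 and 67.7 CPM in WT 1 to 4. Every EtOH library lay above every other library of the experiment. The fitted *cyp7a1* fold change of EtOH over WT was 12, a log2 value of 3.58 ± 0.86 (SE), with an adjusted p of 0.0174. EtOH 4 held more than the other 3 EtOH libraries, which lay within 231–239.5 CPM. Without EtOH 4 the log2 fold change was 3.31 with an adjusted p of 0.106, without WT 1 it was 3.14 (adjusted p = 0.0669), and without WT 2 it was 3.39 (adjusted p = 0.0746), so the call rested on each of these libraries. Without WT 4, the library rich in pancreas and neutrophil markers, it was 4.46 (adjusted p = 0.016).

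In *mtm* livers *cyp7a1* ranged from 13.2 to 64.9 CPM with a median of 33.3 CPM, inside the WT range of 4.29–67.7 CPM. Its log2 fold change over WT was 0.62 ± 0.82 (SE, 95% interval -0.98 to 2.22) with an adjusted p of 0.677, so the data allowed both a fall and a rise. In overfed livers it stood at 38.6, 107, 64.0 and 3.10 CPM. The spread within groups was wide, with the highest library 34.6 times the lowest among overfed pools, 15.8 times among WT pools, 4.91 times among *mtm* pools and 2.46 times among EtOH pools. Compared directly, *cyp7a1* was 7.78-fold lower in *mtm* than in EtOH livers, a log2 fold change of -2.96 ± 0.74 (SE) and an adjusted p of 0.0256, with no overlap. With the first-submission *mtm* libraries alone this difference was -3.48 (adjusted p = 0.0902), with the resubmitted libraries alone -2.59 (adjusted p = 0.106), and with same-numbered *mtm* libraries summed -3.03 (adjusted p = 0.0667). The call was also lost without *mtm* 3 (-2.76, adjusted p = 0.0579), EtOH 1 (-2.81, adjusted p = 0.0942), EtOH 2 (-3.04, adjusted p = 0.05001) or EtOH 3 (-3.14, adjusted p = 0.0527).

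*cyp8b1* stood at 10.4–70.5 CPM in *mtm* libraries with a median of 23.0 CPM, against 98.4, 69.1, 152 and 130.2 CPM in WT 1 to 4. The groups touched at a single point, where *mtm* 1 at 70.5 CPM lay just above WT 2 at 69.1 CPM, and the other 5 *mtm* libraries did not exceed 42.8 CPM. *mtm* 1 was also the *mtm* library with the most hepatocyte, exocrine pancreas, neutrophil and intestine marker RNA. The fitted *cyp8b1* level was 3.94-fold lower in *mtm* than in WT livers, a log2 fold change of -1.98 ± 0.45 (SE) with an adjusted p of 0.00492. The first-submission libraries alone gave -1.89 (adjusted p = 0.0446) and the resubmitted libraries alone -2.10 (adjusted p = 0.00337), and same-numbered *mtm* libraries summed gave -2.00 (adjusted p = 0.00423). Leaving out any 1 of the 10 libraries compared gave -2.33 to -1.75 and kept the call. In EtOH livers *cyp8b1* was 123, 78.9, 182 and 186 CPM and in overfed livers 143, 193, 171 and 86.9 CPM, both overlapping WT. *cyp8b1* was 4.97-fold lower in *mtm* than in EtOH livers (log2 fold change -2.31 ± 0.45 SE, adjusted p = 0.00757) and 5.65-fold lower in *mtm* than in overfed livers (-2.50 ± 0.45 SE, adjusted p = 0.000576), without overlap in either comparison. Against EtOH livers the call was lost with the first-submission *mtm* libraries alone (-2.21, adjusted p = 0.0589) and in a fit of these groups only (-2.23, adjusted p = 0.0683).

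**Figure D1:**
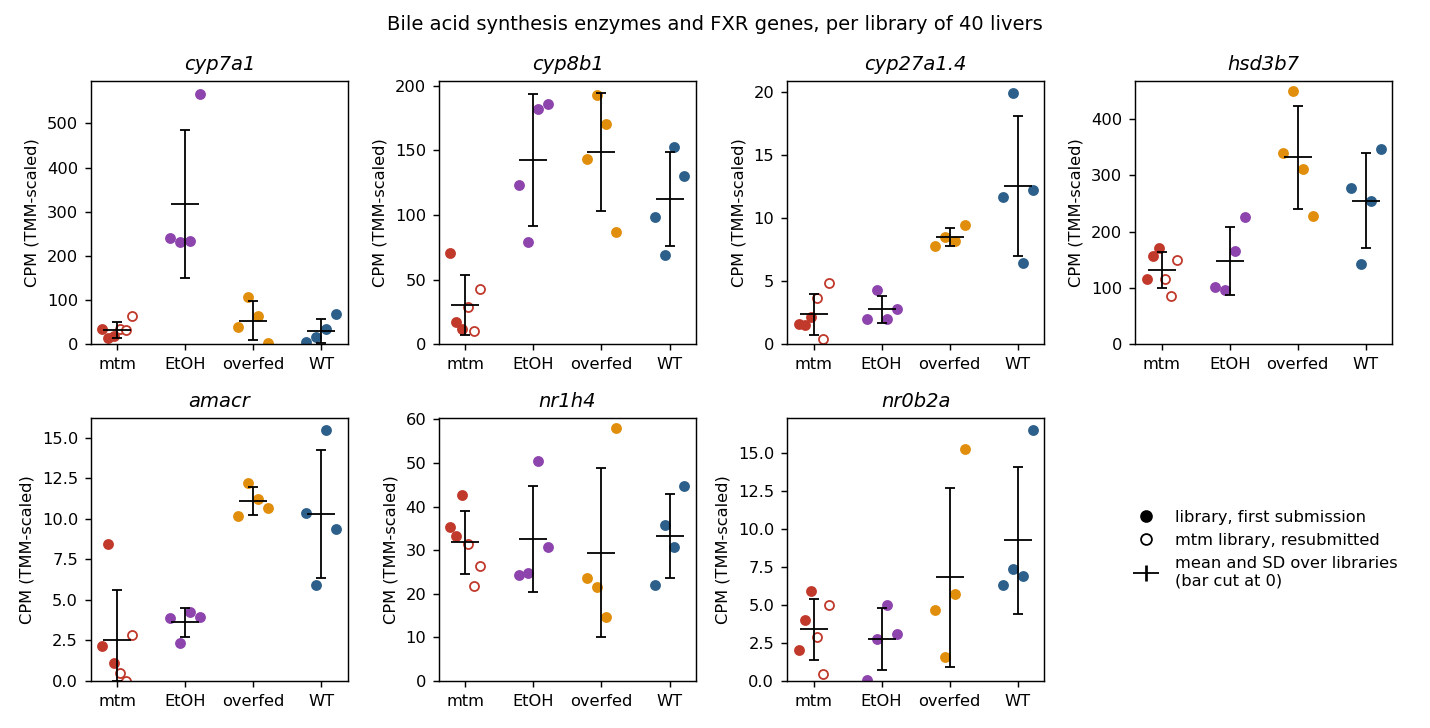
CPM of the 7 genes in each library of *mtm*, EtOH, overfed and WT livers, with filled points for first submissions, open points for resubmitted *mtm* libraries, and a horizontal bar with whiskers for the mean and SD (6 *mtm* and 4 libraries in every other group). *cyp7a1* is at 231 CPM or above in every EtOH library and at 107 CPM or below elsewhere, *cyp8b1* is low in *mtm* libraries, and *cyp27a1.4* is low in both *mtm* and EtOH libraries.

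The relation of both ring hydroxylases to each other also differed between groups. The ratio of *cyp8b1* to *cyp7a1* counts, which is read here across libraries only, had a median of 0.735 in *mtm* libraries (0.322–2.06), 0.428 in EtOH libraries (0.328–0.782), 3.19 in overfed libraries (1.80–28.0) and 4.46 in WT libraries (1.92–23.0). All 4 EtOH libraries lay below all overfed and WT libraries. Of the *mtm* libraries only *mtm* 1, at 2.06, reached the range of the overfed and WT libraries. The high ends came from overfed 4, with 43 *cyp7a1* counts, and from WT 1, with 66 counts. The ratio is a description and was not tested.

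**Figure D2:**
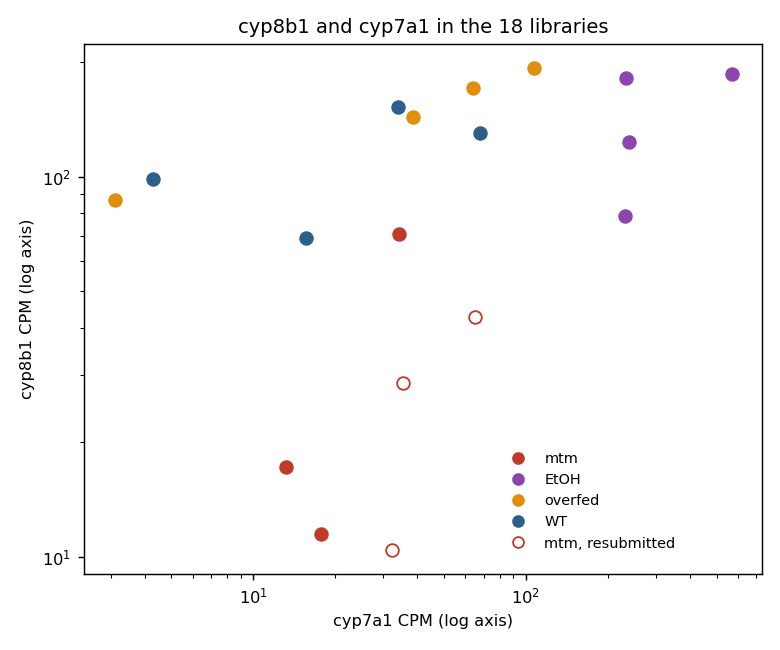
CPM of *cyp8b1* (vertical, log axis) against CPM of *cyp7a1* (horizontal, log axis), 1 point per library. The 4 EtOH libraries lie to the right at 231–568 CPM of *cyp7a1*, the 6 *mtm* libraries lie low at 10.4–70.5 CPM of *cyp8b1*, and the overfed and WT libraries share the upper left.

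*cyp27a1.4*, a side chain hydroxylase gene, was lower in both *mtm* and EtOH livers. It stood at 0.398–4.86 CPM in *mtm* libraries with a median of 1.87 CPM, and at 1.98, 4.27, 1.96 and 2.79 CPM in EtOH libraries, against 11.6, 19.9, 6.39 and 12.2 CPM in WT libraries. Neither group overlapped WT. The level was 5.20-fold lower in *mtm* than in WT livers (log2 fold change -2.38 ± 0.57 SE, adjusted p = 0.00717) and 4.57-fold lower in EtOH than in WT livers (-2.19 ± 0.61 SE, adjusted p = 0.0375). The call in *mtm* livers held when any 1 library was left out, with values of -2.75 to -1.98, and with same-numbered libraries summed (-2.26, adjusted p = 0.00761), but not with the resubmitted libraries alone (-1.95, adjusted p = 0.084). The call in EtOH livers was lost without EtOH 1, 3 or 4 or without WT 1, 2 or 4, with an adjusted p of at most 0.192 and values of -2.61 to -1.74 over the 8 libraries. Overfed libraries held 7.80–9.46 CPM, inside the WT range. *mtm* and EtOH livers did not pass the test against each other (log2 fold change -0.19, 95% interval -1.33 to 0.95, adjusted p = 0.882). The neighbouring copy *cyp27a1.2*, described with the other pathway genes, is a close relative, and reads shared between the copies may have been split by the counting, so the values of each copy are uncertain.

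*hsd3b7*, whose product oxidizes the ring after its first hydroxylation, did not pass the threshold against WT in any group in the main edgeR fit. It stood at 85.7–171 CPM in *mtm* libraries (median 133 CPM) and at 102, 97.1, 166 and 226 CPM in EtOH libraries, against 277, 143, 255 and 346 CPM in WT libraries. The log2 fold change over WT was -0.84 ± 0.30 (SE, adjusted p = 0.061) in *mtm* and -0.81 ± 0.32 (SE, adjusted p = 0.143) in EtOH livers, where WT 2 was the library that overlapped. Without WT 2, the *mtm* difference was -1.06 (adjusted p = 0.0382), and without *mtm* 2 it was -0.97 (adjusted p = 0.0382). Overfed libraries held 340.1, 449, 311 and 227 CPM. Against these, *hsd3b7* was 2.47-fold lower in *mtm* livers (log2 fold change -1.30 ± 0.29 SE, adjusted p = 0.00307) and 2.43-fold lower in EtOH livers (-1.28 ± 0.33 SE, adjusted p = 0.0154). After scaling to hepatocyte markers the *mtm* value turned to 0.72 (adjusted p = 0.135), so that call was lost. The comparison of EtOH with overfed livers was added after the data had been seen, and this call was lost without EtOH 1 (-1.15, adjusted p = 0.0671), EtOH 2 (-1.14, adjusted p = 0.0723) or overfed 2 (-0.95, adjusted p = 0.0699), in a fit of these groups only (-1.23, adjusted p = 0.0691) and after scaling to hepatocyte markers (-0.57, adjusted p = 0.443).

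*amacr*, the racemase gene of the peroxisomal steps, passed no test against WT in the main edgeR fit and varied widely among *mtm* libraries. It stood at 2.14, 8.45, 1.09, 0.477, 0 and 2.83 CPM in *mtm* 1, 2, 3, R1, R2 and R3, and at 3.90, 2.32, 4.24 and 3.95 CPM in EtOH libraries, against 10.3, 5.90, 15.4 and 9.37 CPM in WT libraries. *mtm* R2 held 0 counts, which allows a level of up to 0.239 CPM (3 counts, counting error only), while *mtm* 2 held 181 counts and was the only *mtm* library inside the WT range. EtOH and WT libraries did not overlap. The log2 fold change over WT was -2.13 ± 0.82 (SE, adjusted p = 0.0813) in *mtm* and -1.50 ± 0.86 (SE, adjusted p = 0.353) in EtOH livers, so neither was called. The *mtm* difference was -3.26 (adjusted p = 0.00351) without *mtm* 2, -1.91 (adjusted p = 0.0321) without *mtm* R2, -3.60 (adjusted p = 0.00791) with the resubmitted libraries alone and -1.97 (adjusted p = 0.0197) with same-numbered libraries summed. Overfed libraries were tightly grouped at 10.2–12.2 CPM. *mtm* and overfed libraries did not overlap, but the log2 fold change of -2.22 ± 0.80 (SE, adjusted p = 0.0512) was not called. Leaving out 1 library gave -3.57 to -1.99, with adjusted p of 0.00165 to 0.134.

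The FXR gene passed no test against WT in the main edgeR fit. *nr1h4* stood at 21.8–42.5 CPM in *mtm* libraries (median 32.4 CPM), at 24.3, 24.8, 50.4 and 30.8 CPM in EtOH libraries, at 23.5, 21.6, 14.6 and 58.0 CPM in overfed libraries, and at 21.9, 35.7, 30.8 and 44.8 CPM in WT libraries. All groups overlapped, and group means lay between 29.4 and 33.3 CPM. The log2 fold change over WT was 0.15 ± 0.32 (SE, 95% interval -0.48 to 0.77, adjusted p = 0.818) in *mtm* livers and 0.00 ± 0.34 (SE, 95% interval -0.66 to 0.67, adjusted p = 0.997) in EtOH livers.

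*nr0b2a*, the SHP gene, was counted low in every group and passed no test against WT. It stood at 0.477–5.91 CPM in *mtm* libraries (median 3.44 CPM) and at 0.0582, 2.79, 5.02 and 3.10 CPM in EtOH libraries, against 6.30, 7.35, 6.90 and 16.5 CPM in WT libraries. EtOH 1 held 1 count. Neither group overlapped WT, but neither passed the test, with log2 fold changes of -1.17 ± 0.69 (SE, adjusted p = 0.282) in *mtm* and -1.89 ± 0.79 (SE, adjusted p = 0.176) in EtOH livers. Overfed libraries held 4.68, 1.56, 5.72 and 15.3 CPM and overlapped all other groups. In overfed 4 the highest *nr1h4* and *nr0b2a* levels of the group stood beside its lowest *cyp7a1* level, whereas WT 4 held the highest WT level of all 3 genes.

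Over the 7 genes, 2 were lower and 0 higher in *mtm* than in WT livers, against a background of 8.59% lower and 10.1% higher among all 11489 tested genes. The median log2 fold change of the 7 genes was -1.17, beside 0.01 for all tested genes. In EtOH livers 1 was lower and 1 higher than in WT, against 2.7% lower and 4.66% higher of all genes, with medians of -0.81 and -0.03. Both comparisons share the WT libraries. In overfed livers 0 of the 7 genes were called by edgeR, 0 had an unadjusted p under 0.05, and DESeq2 called 0 of the 4 to which it gave an adjusted p (*cyp7a1*, *cyp8b1*, *hsd3b7* and *nr1h4*). The background there was 0% lower and 0% higher, with 493 genes at an unadjusted p under 0.05 in edgeR, and DESeq2 called 13 genes lower and 15 higher. The 95% intervals in overfed livers still allowed log2 differences of -0.44 to 2.98 for *cyp7a1* and -0.42 to 1.46 for *cyp8b1*.

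**Figure D3:**
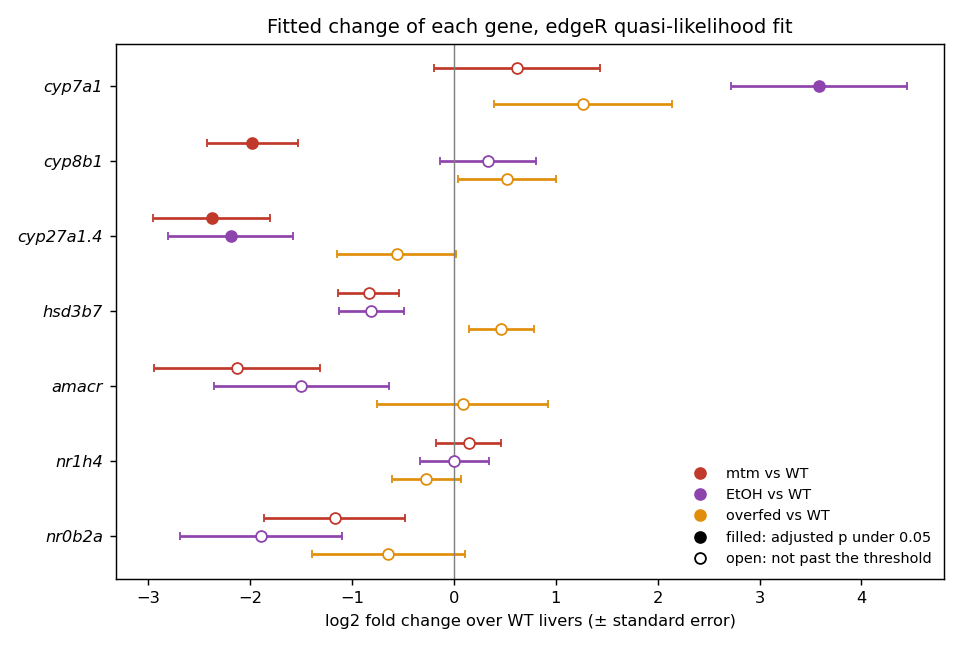
Fitted log2 fold change over WT (horizontal, ± standard error) for the 7 genes in *mtm*, EtOH and overfed livers, filled where the adjusted p was under 0.05. The filled points are *cyp8b1* at -1.98 and *cyp27a1.4* at -2.38 in *mtm* livers, and *cyp7a1* at 3.58 and *cyp27a1.4* at -2.19 in EtOH livers.

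Between the conditions themselves, *mtm* livers had 2 of the 7 genes lower and 0 higher than EtOH livers (all genes 4.2% lower and 2.87% higher), namely *cyp7a1* and *cyp8b1*. *mtm* livers had 3 lower and 0 higher than overfed livers (all genes 11.8% lower and 13.8% higher), namely *cyp8b1*, *hsd3b7* and *cyp27a1.4*. The last of these had a log2 fold change of -1.82 ± 0.56 (SE, adjusted p = 0.0231), which was lost without overfed 1 (-1.81, adjusted p = 0.0636), overfed 2 (-1.81, adjusted p = 0.0556) or overfed 3 (-1.86, adjusted p = 0.0662), with the resubmitted *mtm* libraries alone (-1.42, adjusted p = 0.168) and in a fit of these groups only (-2.06, adjusted p = 0.0538). EtOH livers had 1 lower and 0 higher than overfed livers (all genes 5.09% lower and 8.26% higher). In that comparison *cyp7a1* did not overlap and had a log2 fold change of 2.31 ± 0.84 (SE, adjusted p = 0.0811).

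The *mtm* and EtOH values were also set against hepatocyte marker RNA, by scaling every library to the summed counts of its 21 hepatocyte markers in place of TMM. The most abundant markers weigh most in this sum. On the TMM scale the median log2 fold change of the markers over WT was only -0.56 in *mtm* and 0.06 in EtOH livers. How far the sum follows hepatocyte content was not tested. The scaling moved the median log2 fold change of all genes over WT to 1.91 in *mtm* and 0.63 in EtOH livers. Of all 11489 tested genes, 154 were then called lower and 7889 higher in *mtm* over WT livers. On this scale *cyp8b1* was -0.31 (adjusted p = 0.484) and *cyp27a1.4* -0.41 (adjusted p = 0.637) in *mtm* over WT, so neither was called, and the sign of *hsd3b7* turned to 1.12 (adjusted p = 0.0321) and that of *nr0b2a* to 0.81 (adjusted p = 0.395). *cyp7a1* was then at 2.44 (adjusted p = 0.0118) and *nr1h4* at 2.08 (adjusted p = 0.00221), near the median of all genes. *cyp8b1*, *cyp27a1.4*, *hsd3b7*, *amacr* (-0.39, adjusted p = 0.69) and *nr0b2a* all lay below that median. The scaling shifts all genes of a library by a shared factor. The place of a gene or list against that median therefore largely restates the TMM fit. In EtOH over WT *cyp7a1* was at 4.25 (adjusted p = 0.00181) and *cyp27a1.4* at -1.52 (adjusted p = 0.255). The difference between *mtm* and EtOH livers held on this scale for *cyp8b1* (-1.30, adjusted p = 0.0193) and *cyp7a1* (-1.81, adjusted p = 0.0399). In that comparison *hsd3b7* (1.28, adjusted p = 0.0328) and *nr1h4* (1.44, adjusted p = 0.0314) were called higher. The median of all genes there was 1.27, with 89 lower and 4270 higher. Between *mtm* and overfed livers *cyp8b1* lost its call on this scale (-0.73, adjusted p = 0.0935).

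**Figure D4:**
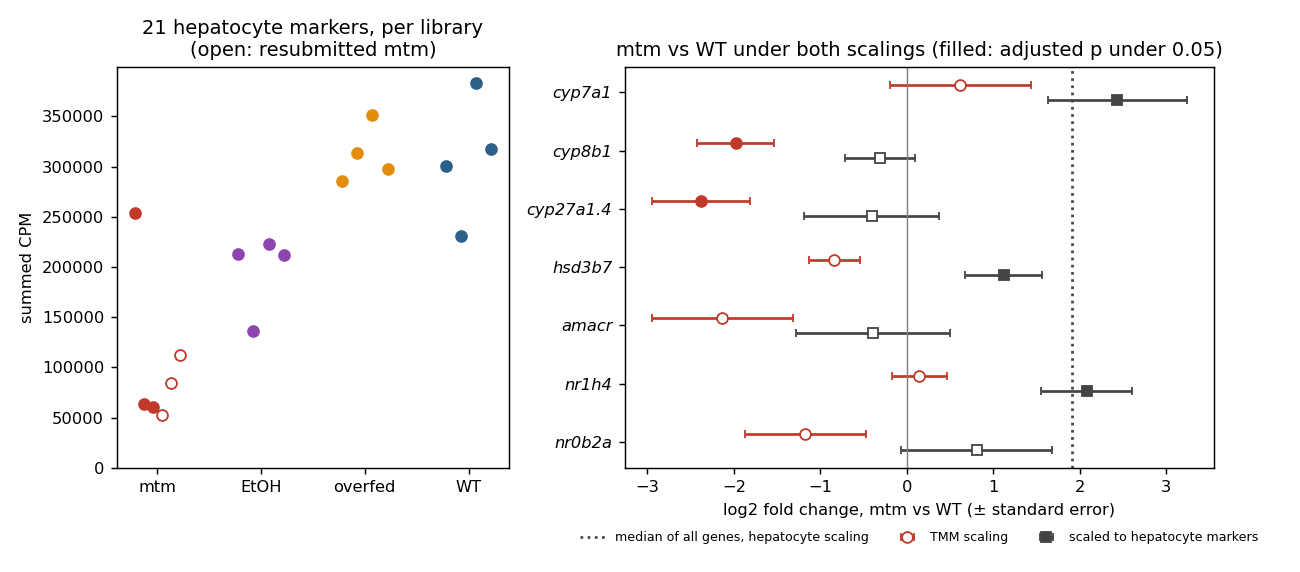
Left, summed CPM of 21 hepatocyte markers per library (open points, resubmitted *mtm*). Right, log2 fold change of *mtm* over WT (± standard error) for the 7 genes under TMM scaling (circles) and after scaling to hepatocyte markers (squares), filled where the adjusted p was under 0.05, with a dotted line at the median of all genes on the second scale, 1.91.

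Other genes of the pathway were taken from a list of 28, of which 19 were in the table and 13 were tested. In *mtm* livers 5 were lower and 0 higher than in WT (all genes 8.59% lower and 10.1% higher), with a median log2 fold change of -1.23 beside 0.01 for all genes. In EtOH livers 4 were lower and 0 higher (all genes 2.7% lower and 4.66% higher), with a median of -0.83 beside -0.03. In overfed livers 0 were called, as over all genes. Of the 5 genes lower in *mtm* livers, *hsd17b4*, *abcd3a* and *acox3* are genes of peroxisomal proteins. *hsd17b4*, the gene of a bifunctional enzyme that acts in side chain processing, stood at 2.62–22.2 CPM in *mtm* and at 17.2–41.0 CPM in EtOH libraries, against 83.5–140.2 CPM in WT libraries. Its log2 fold change over WT was -3.66 ± 0.50 (SE, adjusted p = 9.1e-05) in *mtm* and -2.07 ± 0.53 (SE, adjusted p = 0.0241) in EtOH livers. *abcd3a*, whose mammalian counterpart imports bile acid intermediates into the peroxisome, stood at 55.9–150.4 CPM in *mtm* and 49.2–101 CPM in EtOH libraries, against 272–448 CPM in WT libraries. Its log2 fold changes were -2.06 (adjusted p = 3.27e-05) in *mtm* and -2.19 (adjusted p = 0.000201) in EtOH livers. *acox3*, a peroxisomal oxidase of branched-chain acyl-CoA, was at -1.95 (adjusted p = 0.000836) in *mtm* and -1.68 (adjusted p = 0.0123) in EtOH livers. Neither *hsd17b4*, *abcd3a* nor *acox3* overlapped WT in either group.

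*slc27a2a*, a very long-chain acyl-CoA synthetase gene, was lower in *mtm* livers at -1.23 (adjusted p = 0.0144), beside -0.43 (adjusted p = 0.54) in EtOH livers, and the direct test of *mtm* against EtOH livers did not call this gene. *cyp27a1.2* was at -2.06 (adjusted p = 0.0215) in *mtm* and -3.03 (adjusted p = 0.0111) in EtOH livers, with 0.239–3.53 CPM in *mtm* and 0.62–1.11 CPM in EtOH libraries, against 3.83–11.7 CPM in WT libraries. The 8 tested genes of the list without a call in *mtm* livers included *cyp8b2*, at -1.48 (adjusted p = 0.23), and *scp2b*, at 0.06 (adjusted p = 0.941), both singled out after their values had been seen.

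Scaled to hepatocyte markers, the list moved from 5 lower and 0 higher to 1 lower and 4 higher in *mtm* over WT livers (all 11489 tested genes 154 lower and 7889 higher). Its median log2 fold change was 0.45 beside 1.91 for all genes, and 11 of its 13 genes lay below the median of all genes. As above, the place against that median largely restates the TMM fit. The gene still lower was *hsd17b4*, at -2.14 (adjusted p = 0.000319), whereas *abcd3a* was at -0.28 (adjusted p = 0.436), *acox3* at -0.33 (adjusted p = 0.373), *cyp27a1.2* at -0.09 (adjusted p = 0.919) and *slc27a2a* at 0.45 (adjusted p = 0.246). In EtOH over WT livers 1 was lower and 0 higher on this scale (all genes 83 lower and 897 higher), with a median of -0.23 beside 0.63 for all genes. That gene was *abcd3a*, at -1.55 (adjusted p = 0.0077), and *hsd17b4* was at -1.43 (adjusted p = 0.0533).

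**Figure D5:**
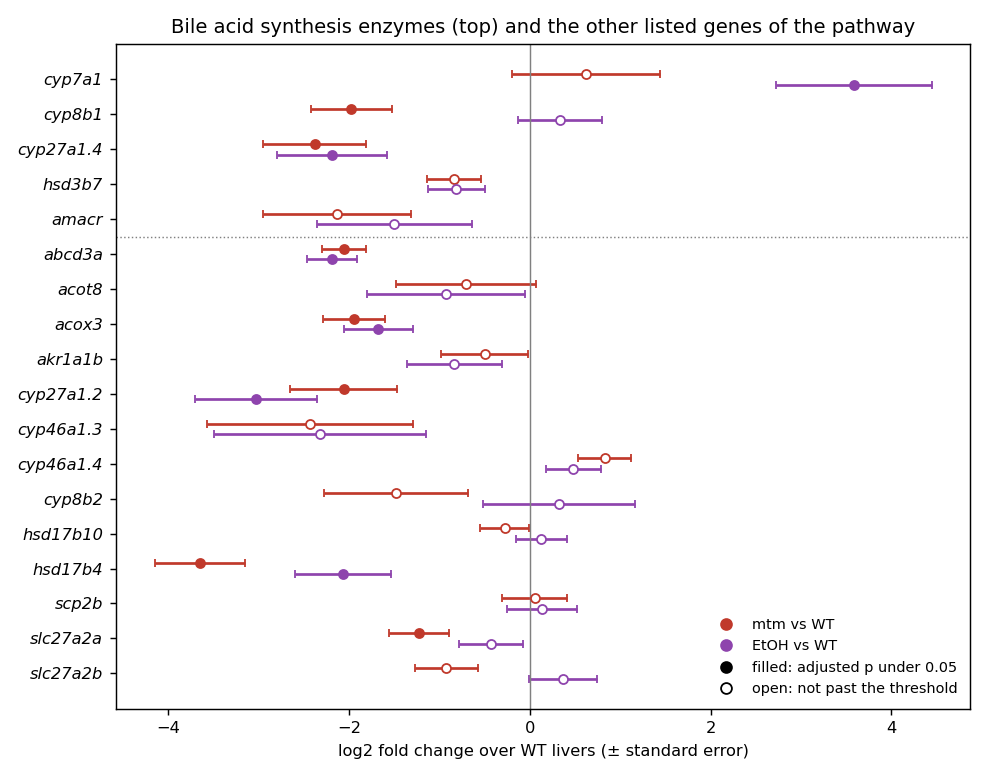
Log2 fold change over WT (horizontal, ± standard error) in *mtm* and EtOH livers for the 5 synthesis enzymes (above the dotted line) and the 13 other tested genes of the pathway, filled where the adjusted p was under 0.05. *hsd17b4*, *abcd3a*, *acox3*, *cyp27a1.2* and *cyp27a1.4* are filled on the left in both conditions, and *cyp7a1* in EtOH livers is the only filled point on the right. These values are on the TMM scale, and after scaling to hepatocyte markers *hsd17b4* alone stayed below WT by call in *mtm* livers among the 13 genes.

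Among 26 tested receptors, partners and regulators (44 listed, 34 in the table), 4 were higher in *mtm* than in WT livers (10.1% of all genes). *cebpb* was at 1.45 (adjusted p = 0.00422), *foxa3* at 1.37 (adjusted p = 0.00235) and *onecut1* at 1.84 (adjusted p = 0.0119), all of them liver transcription factor genes, and *onecut1* is also on the bile duct marker list. The fibroblast growth factor receptor gene *fgfr4*, through which intestinal FGF represses Cyp7a1 in mammals, was at 1.76 (adjusted p = 0.0249). In EtOH livers 0 were lower and 3 higher (all genes 2.7% lower and 4.66% higher), with *cebpb* at 1.56 (adjusted p = 0.00951), *foxa3* at 1.44 (adjusted p = 0.00516) and *nr1h3*, the oxysterol receptor LXRα, at 0.92 (adjusted p = 0.0457). *fgf19* was not called in either group, at -0.18 (adjusted p = 0.879) in *mtm* and -0.17 (adjusted p = 0.782) in EtOH livers. The second FXR gene, *nr1h5*, was at 0.30 (adjusted p = 0.384) in *mtm* and 0.61 (adjusted p = 0.119) in EtOH livers, and *nr5a2*, encoding LRH-1, at 0.80 (adjusted p = 0.0504) in *mtm* and 0.34 (adjusted p = 0.542) in EtOH livers. *fgfr4*, *nr1h3*, *fgf19*, *nr1h5* and *nr5a2* were singled out after their values had been seen. On the hepatocyte scale 17 of the 26 genes were higher in *mtm* over WT livers, beside 7889 of all 11489 tested genes. The median of the list, 1.96, lay beside 1.91 for all genes.

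A list of transporters also held related genes, such as the tight junction gene *tjp2a* (23 listed, 18 in the table). Of its 13 tested genes, 1 was lower and 4 were higher in *mtm* than in WT livers (all genes 8.59% lower and 10.1% higher). In EtOH livers 0 were lower and 1 higher (all genes 2.7% lower and 4.66% higher). *abcc3*, a basolateral exporter of bile acid conjugates in mammals, stood at 3.50–13.4 CPM in *mtm* libraries, against 0.862–5.36 CPM in WT libraries (log2 fold change 2.72 ± 0.56 SE, adjusted p = 0.00248). *tjp2a*, a tight junction gene, was at 1.75 (adjusted p = 0.0215), *slco2b1* at 1.15 (adjusted p = 0.0396) and *myo5b* at 1.04 (adjusted p = 0.0477), while the uptake carrier gene *slco1d1* was at -1.14 (adjusted p = 0.0181). In EtOH livers the call was *slco2b1*, at 1.37 (adjusted p = 0.0344). The bile salt export pump gene *abcb11b*, an FXR target in mammals, had group ranges of 331–868 CPM in *mtm*, 281–541 CPM in EtOH and 518–1088 CPM in WT libraries, and was not called at -0.46 (adjusted p = 0.344) in *mtm* or -0.86 (adjusted p = 0.136) in EtOH livers. On the hepatocyte scale 9 of the 13 genes were higher and 0 lower in *mtm* over WT livers (median 1.84), beside 7889 higher and 154 lower of all 11489 tested genes. *slco1d1* turned to 0.49 (adjusted p = 0.113) and *abcb11b* to 1.27 (adjusted p = 0.00299), below the median of all genes. *abcb11b* and *myo5b* were singled out after their values had been seen.

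Marker lists of several other cell types, but not all, differed between the same groups. Among all tested genes 8.59% were lower and 10.1% higher in *mtm* than in WT livers, and 2.7% lower and 4.66% higher in EtOH livers. Of the 21 hepatocyte markers 8 were lower and 1 higher in *mtm* than in WT livers, and 2 were lower and 2 higher in EtOH livers. All 10 tested macrophage markers were higher in *mtm* and 4 in EtOH livers, and of 12 tested bile duct markers 7 were higher in *mtm* and 4 in EtOH livers. Of 8 tested neutrophil markers 6 were higher in *mtm* and 2 in EtOH livers, of 10 stellate markers 5 and 2, and of 13 endothelial markers 3 and 2, with 0 lower in these lists. Of 15 intestine markers 5 were lower and 1 higher in *mtm*, and 2 lower and 1 higher in EtOH livers. Of 15 exocrine pancreas and 10 erythrocyte markers 0 were called in either group, and of 12 skeletal muscle markers 0 in *mtm* and 1, higher, in EtOH livers. Beyond the scaling to hepatocyte markers given above, the part of cell composition in the values of the enzymes and their regulators was not tested.

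Similarity across the 18 libraries was described by Pearson's r of log2 CPM between each of the 7 genes and all other tested genes. The libraries share groups and composition, so these values describe common patterns only. For *cyp8b1* the most similar genes were *zgc:153913* (r = 0.96), *serpina1* (0.94), which is also on the hepatocyte marker list, and *hhla2b.2* (0.94). For *amacr* they were *coq9* (0.96), *zgc:112492* (0.94) and *btd* (0.94), and for *cyp27a1.4* they were *parla* (0.92), *cbln13* (0.90) and *hs6st1a* (0.89). For *hsd3b7* they were *nr0b1* (0.91), *haao* (0.87) and *idh1* (0.87). *cyp7a1* was most like *fpgs* (0.83), *si:ch211-133n4.9* (0.82) and *ccdc106a* (0.81), *nr1h4* most like *gata6* (0.84), *cecr2* (0.77) and *hnf4g* (0.75), and *nr0b2a* most like *rereb* (0.91), *tinf2* (0.87) and *dcaf12* (0.87). None of the 7 genes was among the 3 nearest of another.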

How the data were processed

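Pools of dissected livers were sequenced as bulk RNA. Per the labels and methods, the authors trimmed reads with Trim Galore 0.6.6, checked them with FastQC 0.11.09, estimated expected counts with Salmon against the GRCz11 transcriptome, and deposited these estimated counts, summed to genes and held as whole numbers, with no scaling. The strand setting of the counting is not given in the sources used here. In the table, 15 genes stood under dates, 9 of them tested, and kept those names.

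Genes with at least 5 reads in at least 80% of the 18 libraries were kept. Scaling used TMM (edgeR 4.0.16, R 4.3.3). All 4 groups shared 1 quasi-likelihood fit, the main fit, in which the replicate number was a covariate, following the study's design. P-values were adjusted by Benjamini-Hochberg over all tested genes of a fit, 11489 in the main fit, and called under 0.05. Every adjusted p comes from the edgeR F test unless DESeq2 (1.42.0) is named. It belongs to the main fit unless an altered choice or a left-out library is named. CPM are counts over the TMM-scaled library size. Standard errors are the absolute log2 fold change over the square root of F, and intervals are 95%. log2 CPM for similarity used a prior count of 2. The test was checked on simulated data with large changes, independent libraries and no replicate effect. That check does not cover small changes or libraries that share a pool.

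The genes, lists and comparisons were chosen with earlier results of these data known. Named genes are the listed members, the target, up to 4 genes of every other list with the smallest adjusted p in *mtm* and up to 2 in EtOH over WT, and the 3 most similar genes of every member, plus those said to be singled out afterwards. Alternatives covered tools, scaling, filters, the covariate, the *mtm* submissions and each left-out library. The *abcb11b* experiment was not used, and 1 result on a listed regulator is not reported here. No sequences or coordinates are given.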

Additional observations from a re-analysis of the deposited data

Results flagged for a closer look

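In 32 combinations of a value and a group of 4 to 6 libraries, 5 held a library far from the others by Dixon's test. Its nominal rate of about 1 in 20 holds for independent, normally distributed values. These combinations share libraries and CPM need not be normal, so the count cannot be set against that rate. *cyp7a1* stood at 568 CPM in EtOH 4, beside 231–239.5 CPM in the other 3 EtOH libraries. *amacr* stood at 8.45 CPM in *mtm* 2, beside 0–2.83 CPM in the other 5 *mtm* libraries. *nr0b2a* stood at 16.5 CPM in WT 4, beside 6.30–7.35 CPM in the other 3 WT libraries, and WT 4 was also the library rich in pancreas and neutrophil markers. The summed hepatocyte markers stood at 253430 CPM in *mtm* 1, beside 52782–112610 CPM in the other 5 *mtm* libraries, and at 136534 CPM in EtOH 2, beside 211767–223249 CPM in the other 3 EtOH libraries. The origin of these differences was not tested.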

How the results depend on the processing

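Values are log2 fold changes, or numbers of the 7 genes called, under 1 altered choice at a time. Over 30 pairs of same-numbered libraries from different groups, deviations from the group means correlated at r = -0.23 to 0.34 (median 0.00), and 7 pairs were over 0.1. Over 90 pairs with different numbers r was -0.36 to 0.27 (median 0.00), and 14 pairs were over 0.1. Of 18 libraries, 6 were closest to their own number. Whether the numbers pair the libraries was not tested. Without the replicate block, *hsd3b7* became lower in *mtm* than in WT livers (-0.95, adjusted p = 0.0232). *amacr* became lower in *mtm* than in overfed livers (-2.13, adjusted p = 0.0335). *cyp7a1* became higher in EtOH than in overfed livers (2.575, adjusted p = 0.0345), making 1 gene higher, beside 958 of all 11489 tested genes. *nr1h4* turned to -0.066 in *mtm* over WT, -0.032 in EtOH over WT and -0.034 in *mtm* over EtOH, and no other call changed.

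Scaling to hepatocyte markers reversed 10 of 42 log2 fold changes. In *mtm* over WT it left 0 genes lower and 3 higher, turning *hsd3b7* to 1.12 and *nr0b2a* to 0.81. Of all 11489 tested genes, 154 were then lower and 7889 higher. In *mtm* over EtOH it left 2 higher and turned *amacr* to 0.46, *cyp27a1.4* to 1.12 and *hsd3b7* to 1.28. In *mtm* over overfed it left 0 lower and 1 higher and turned *cyp27a1.4* to 0.22, *cyp7a1* to 1.28, *hsd3b7* to 0.72 and *nr0b2a* to 1.44. In EtOH over WT it left 0 lower, and in EtOH over overfed 0 lower and 1 higher, with *cyp8b1* turned to 0.57. With this scaling the median of all genes in *mtm* over WT stood at 1.91. Over all genes, 89 were lower and 4270 higher in *mtm* over EtOH, and 172 lower and 8072 higher in *mtm* over overfed. In EtOH over WT 83 were lower and 897 higher, and in EtOH over overfed 130 lower and 1516 higher.

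DESeq2 called 4 genes lower in *mtm* than in WT livers (all 11489 tested genes 1349 lower and 1516 higher). Besides *cyp8b1* and *cyp27a1.4* these were *hsd3b7* (-0.87, adjusted p = 0.0325) and *amacr* (-2.19, adjusted p = 0.018). DESeq2 called 2 lower and 1 higher in EtOH than in overfed livers (all genes 993 lower and 1276 higher). Requiring an absolute log2 fold change above 2 left 1 lower in *mtm* than in WT, 1 lower in *mtm* than in overfed and 0 lower in EtOH than in overfed livers. Over all genes, 375, 497 and 228 were lower in these comparisons. A fit of only the 2 groups compared called 1 gene lower in *mtm* than in EtOH livers (*cyp7a1*, with *cyp8b1* lost), beside 26 of all genes. In EtOH than in overfed livers it called 2 lower, *amacr* (adjusted p = 0.0282) and *cyp27a1.4* (adjusted p = 0.0365), beside 629 of all genes. *hsd3b7* was lost there (adjusted p = 0.0691). In *mtm* over EtOH the first submission alone left 0 lower, the resubmitted libraries alone 1 and summed libraries 1. Over all genes these settings called 218, 566 and 575 lower. The remaining reversals were of values near 0 and not called. *hsd3b7* in *mtm* over EtOH was 0.0106 with no filter, 0.02999 with at least 10 reads, 0.17 with only the 2 groups and 0.15 with the first submission alone, and *cyp27a1.4* there was 0.24 with the resubmitted libraries alone. *nr1h4* in EtOH over WT was -0.015 with DESeq2, -0.0151 with its size factors in edgeR, -0.0256 with no filter, -0.0003002 with at least 10 reads and -0.0429 with only the 2 groups. With the resubmitted libraries alone it was -0.10 in *mtm* over WT and -0.11 in *mtm* over EtOH.

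Leaving out 1 library at a time gave 2–4 genes lower in *mtm* than in WT (4 without *mtm* 2), 0–1 lower and 0–1 higher in EtOH than in WT, 1–2 lower in *mtm* than in EtOH, 2–4 lower in *mtm* than in overfed, and 0–1 lower and 0–1 higher in EtOH than in overfed livers. Over all 11489 tested genes, 660–1166 were lower in *mtm* than in WT livers (1035 without *mtm* 2). In EtOH over WT 169–297 of all genes were lower and 260–518 higher. In *mtm* over EtOH 194–759 were lower, and in *mtm* over overfed 878–1514. In EtOH over overfed 354–570 were lower and 577–916 higher. Signs turned within -0.21 to 0.35 for *amacr* and -0.0295 to 0.84 for *cyp8b1* in overfed over WT, -0.38 to 0.25 for *nr1h4* in EtOH over WT, -0.49 to 0.21 for *cyp27a1.4*, -0.17 to 0.14 for *hsd3b7* and -0.0296 to 0.56 for *nr1h4* in *mtm* over EtOH, -1.07 to 0.13 for *cyp7a1* in *mtm* over overfed, and -0.53 to 0.35 for *cyp8b1* and -0.0677 to 0.60 for *nr1h4* in EtOH over overfed livers. Where a cause is not given by the construction of the alternative, the cause was not tested. Genes counted under 10 reads in some libraries, *amacr*, *nr0b2a* and *cyp27a1.4*, carry the widest counting error.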
